A study of Mus musculus with 6 samples.

Results

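The genes described here are 6 genes, other than keratins, that are known to rise in damaged kidney tubules: Clu, Gdf15, Vcam1, Vim, Cd24a and Cp. They were read from RNA sequencing libraries of mouse kidney, 6 in number, 3 labelled healthy and 3 labelled acute renal failure, which is a rapid loss of kidney function. All libraries came from C57BL/6 mice, the standard inbred laboratory strain, at postnatal day 21, and the labels name no transgene or mutated gene. The sample titles call the groups control and treat without naming an agent, while the deposited count tables are named WT and mutant. The cause of the renal failure is not stated. It is also not stated that each library is a different mouse, and p-values therefore cover only library-to-library spread, which may be technical. Below, the groups are the healthy-labelled and the ARF-labelled libraries. The 6 genes were chosen by name, with earlier results of these data known. They are 6 of 9519 genes read and of 5246 tested, and were found by the GRCm38 exons that lie under each counted interval, because the row names of the deposited tables mostly do not belong to the reads counted in them.

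Tubular epithelial cells that survive an insult lose their transport machinery, spread over the bare basement membrane and switch on a characteristic set of genes before they either recover or stay in a scarring state. Clu and Gdf15 encode secreted proteins of that response, a chaperone and a stress cytokine. Vcam1 and Cd24a encode surface proteins, Vim encodes an intermediate filament that mature tubule cells largely lack, and Cp encodes the copper-carrying ferroxidase ceruloplasmin.

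Each gene was counted over part of its exons, with exon bases taken from the GENCODE M21 basic annotation unless stated. Clu (chromosome 14, 65968483 to 65981547, GRCm38, plus strand) was counted over 659 of its 1810 exon bases, of which 264 are coding. Gdf15 (chromosome 8, 70629393 to 70632456, minus strand) was counted over 924 of 1852 exon bases, 775 of them coding. Vim (chromosome 2, 13573927 to 13582826, plus strand) was counted over 490 of 2193 exon bases, all coding, and is the only member whose deposited row carries its own name. Cd24a (chromosome 10, 43578284 to 43584265, plus strand) was counted over 860 of 2035 exon bases in the row named F930017D23Rik, and 816 of these lie outside the coding sequence, at the 3′ end of the gene. Vcam1 (chromosome 3, 116109949 to 116129688, minus strand) was counted over 355 of 4983 exon bases, 276 of them coding. Its row also holds 33 exon bases of the long non-coding RNA gene Gm26544, and the whole row spans 12456 bases. In the full GENCODE M21 annotation 1383 Vcam1 exon bases lie under that row. Some of its few reads may thus lie outside the 355 bases, or outside Vcam1 exons. Cp (chromosome 3, 19957054 to 20009145, plus strand) was counted over 243 of 5800 exon bases, all coding, in 2 rows. Rows of the other members also span more than these exon bases, with 6093 bases for Clu, 3673 for Gdf15, 4743 for Vim and 4976 for Cd24a. The 2 Cp rows span 1147 and 412 bases, of which the full annotation gives 1147 and 332 to Cp exons. Reads of these genes may thus also lie outside the stated exon bases.

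**Figure D1:**
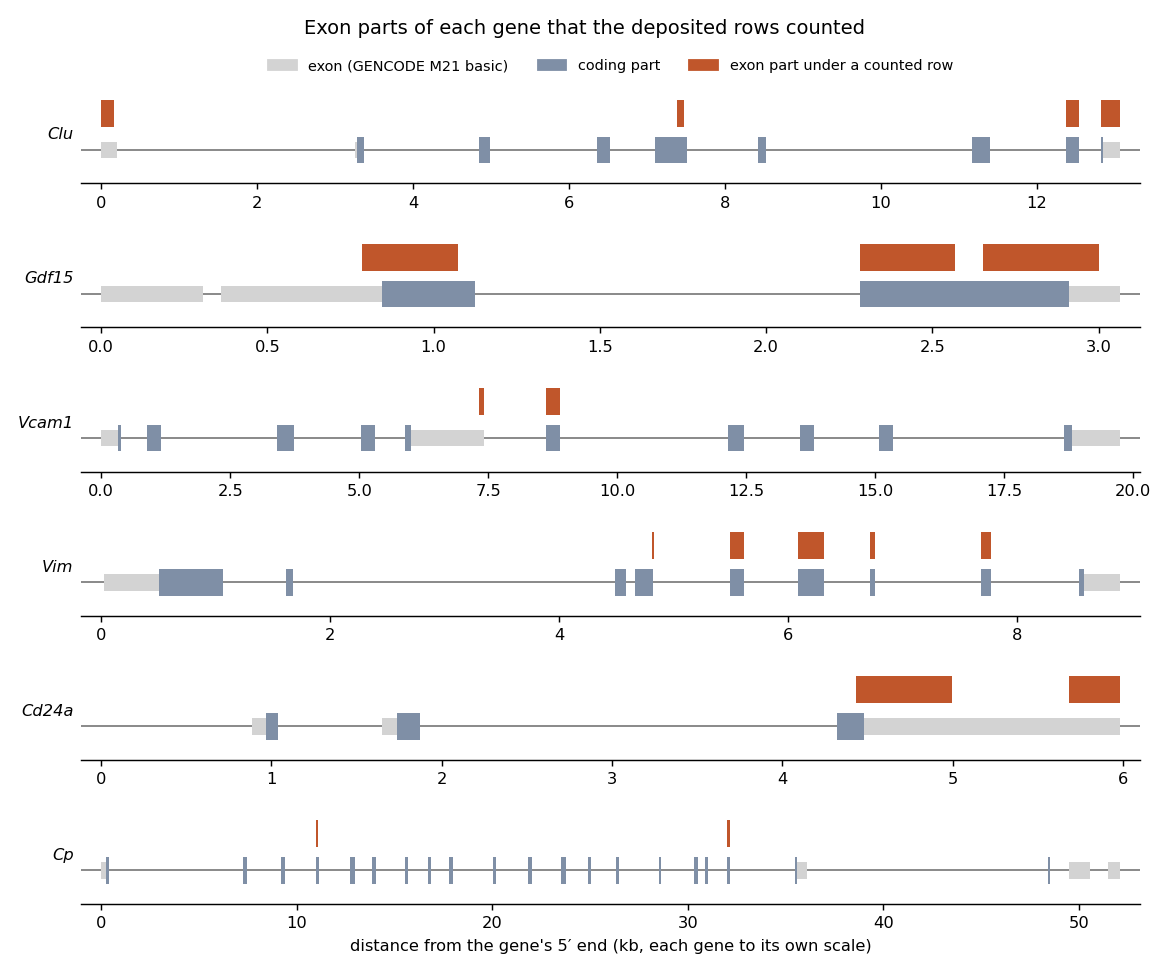
Gene models of the 6 genes drawn from their 5′ ends in kb, each to its own scale, with exons in grey, coding parts in blue-grey and the exon parts under a counted row in orange. The counted parts cover 4 exons of Clu, 5 of Vim and 2 of Cp, and for Cd24a they lie almost wholly beyond the coding sequence.

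Coding exons of 3 of the genes are printed to show some of the bases that the values below were counted over. They were taken from the GENCODE M21 transcripts on GRCm38 and run 5′ to 3′ along the transcript. Counted bases are in capitals and uncounted coding bases of the same exon in lower case. The capitals are 230 of the 924 counted exon bases for Gdf15, 44 of 860 for Cd24a and 77 of 243 for Cp. Gdf15 is shown at chr8:70631333-70631612, the coding part of exon 1 of 2, which opens with the start codon. Cd24a is shown at chr10:43582604-43582762, the coding part of exon 2 of 2, and Cp at chr3:19968040-19968213, exon 4 of 20.
Gdf15: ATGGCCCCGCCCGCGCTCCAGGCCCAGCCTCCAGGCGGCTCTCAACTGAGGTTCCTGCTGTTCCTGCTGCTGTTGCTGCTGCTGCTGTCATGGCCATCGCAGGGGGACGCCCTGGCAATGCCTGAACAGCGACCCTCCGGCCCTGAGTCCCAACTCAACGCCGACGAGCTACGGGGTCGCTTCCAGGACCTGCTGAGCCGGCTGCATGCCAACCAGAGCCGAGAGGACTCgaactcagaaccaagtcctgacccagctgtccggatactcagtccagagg
Cd24a: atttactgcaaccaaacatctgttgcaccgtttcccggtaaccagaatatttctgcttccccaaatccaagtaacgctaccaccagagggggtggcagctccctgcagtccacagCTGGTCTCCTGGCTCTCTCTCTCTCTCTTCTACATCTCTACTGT
Cp: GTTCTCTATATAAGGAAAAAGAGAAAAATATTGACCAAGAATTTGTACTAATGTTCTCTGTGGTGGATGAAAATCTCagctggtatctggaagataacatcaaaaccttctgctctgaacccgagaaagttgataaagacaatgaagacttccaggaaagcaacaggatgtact

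In the ARF-labelled libraries 5 of the 6 genes were lower and none was higher, with calls made at an adjusted p of 0.05 (edgeR quasi-likelihood, Benjamini-Hochberg over 5246 genes). Over all genes tested 24.9% were called lower and 25.1% higher. Genes known for rising in injured tubules were thus lower in the libraries labelled acute renal failure than in those labelled healthy. The labels were used as given, and the sign of every log2 fold change would turn if those of the groups were exchanged. The median log2 fold change of the 6 genes was -2.28, against 0.01 over all genes tested. Because the genes were chosen with earlier results of these data known, their count and median beside those of all genes are description only. In the same 5 genes each healthy-labelled library lay above each ARF-labelled library in CPM (counts per 1000000 of the library total), which held in that direction for 22.4% of all genes tested and in either direction for 62.4%. Each of the 5 was read through 1 deposited row, so a fit of deposited rows in place of genes uses the same counts for them. It is no separate support. The 5 were lower in that fit too, as were 22.6% of rows. Scaling the libraries by total count alone moves the median of all genes to 0.19. It also moves the share of calls that are higher from 50.3% to 63.3%, while the same 5 genes remained lower. In bulk tissue fewer cells of a type and less RNA per cell cannot be told apart.

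**Figure D2:**
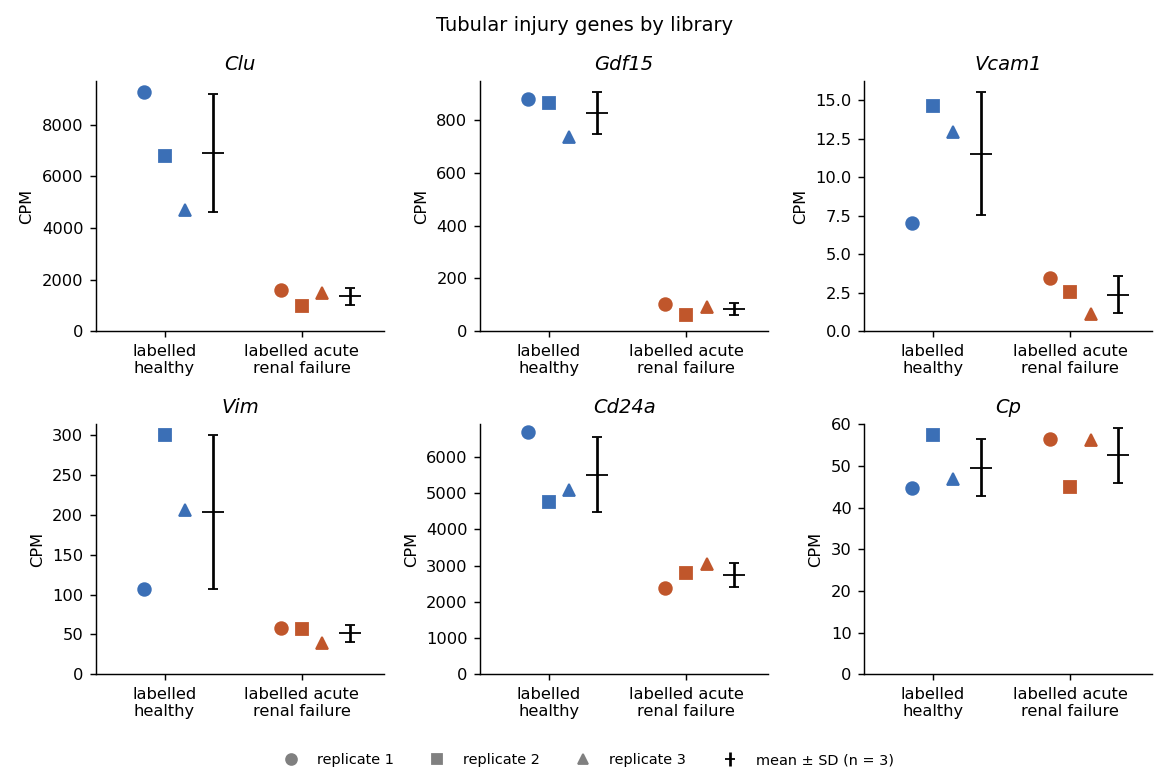
CPM of each gene in every library, from 0 on each axis, with healthy-labelled libraries in blue, ARF-labelled libraries in orange, the replicate number as the symbol, and the mean ± SD of 3 libraries in black. The groups are separate for Clu, Gdf15, Vcam1, Vim and Cd24a and overlap for Cp.

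Among the secreted proteins, Gdf15 showed the largest difference. Gdf15 is a distant member of the transforming growth factor beta family that cells release under stress and that acts on a receptor in the hindbrain. It stood at 878, 864 and 735 CPM in healthy-labelled replicates 1, 2 and 3, and at 105, 61.0 and 90.4 CPM in ARF-labelled replicates 1, 2 and 3. The lowest healthy-labelled library was 7.01 times the highest ARF-labelled library. The healthy-labelled libraries were close together, the highest being 1.20 times the lowest. Gdf15 fell from 826 ± 79.0 to 85.4 ± 22.4 CPM (SD, n = 3 each), a log2 fold change of -3.45 (SE 0.20, edgeR adjusted p = 1.07e-05). Only 57 of the 5246 genes tested had a more negative log2 fold change.

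Clu encodes clusterin, an extracellular chaperone that binds unfolded proteins and is shed into urine after tubular damage. It stood at 9281, 6773 and 4715 CPM in healthy-labelled replicates 1, 2 and 3. The ARF-labelled libraries held 1612, 965 and 1479 CPM in the same order. The healthy-labelled libraries were spread, with the highest 1.97 times the lowest, yet the lowest of them was still 2.93 times the highest ARF-labelled library. The means were 6923 ± 2287 and 1352 ± 342 CPM (SD, n = 3 each), a log2 fold change of -2.54 (SE 0.28, edgeR adjusted p = 0.000174).

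Of the surface proteins, Cd24a is a small glycosyl-phosphatidylinositol-anchored glycoprotein found on developing and distal tubule epithelium and on some blood cells. It stood at 6682, 4759 and 5083 CPM in healthy-labelled replicates 1, 2 and 3 and at 2384, 2796 and 3056 CPM in ARF-labelled replicates 1, 2 and 3. Its groups did not overlap, but the gap was the narrowest of the 5, the lowest healthy-labelled library being 1.56 times the highest ARF-labelled library. Cd24a fell from 5508 ± 1030 to 2745 ± 339 CPM (SD, n = 3 each), a log2 fold change of -1.18 (SE 0.17, edgeR adjusted p = 0.000704). Marker lists of the cell types that can carry Cd24a moved in both directions. The ARF-labelled libraries were higher in all 4 principal cell genes tested, with summed levels of 3350 to 4069 CPM in the healthy-labelled and 9488 to 11305 CPM in the ARF-labelled libraries. All 6 intercalated cell genes tested were higher too, with sums of 1072 to 1333 and 4665 to 5719 CPM. Aqp3, the basolateral water channel of principal cells, had a log2 fold change of 1.19 and Atp6v0d2, a proton pump subunit, one of 1.65. Of 3 distal convoluted and connecting tubule genes tested, the calcium channel gene Trpv5 (-1.58) and the magnesium channel gene Trpm6 (-1.74) were lower and Calb1, which encodes calbindin, was higher (1.98); the 3 were named after their values were seen. Erythroid and platelet genes, 7 read and 5 tested, had 3 lower and 1 higher, with sums of 171, 805 and 483 CPM in healthy-labelled replicates 1, 2 and 3 and 34.3, 83.8 and 57.2 CPM in ARF-labelled replicates 1, 2 and 3. Hbb-bs alone gave 732 of the 805 CPM in healthy-labelled replicate 2. The 1 higher call was lost in each fit that left out 1 library. Neutrophil genes, given below with the other leukocyte markers, were lower. Their part in the level of Cd24a was not tested.

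Vcam1 is the adhesion molecule that holds leukocytes through the integrin VLA-4, on activated endothelium and on failed-repair proximal tubule cells. Its level rests on few counts, 40, 42 and 47 in healthy-labelled replicates 1, 2 and 3 and 19, 14 and 7 in ARF-labelled replicates 1, 2 and 3. The exact 95% Poisson interval, which covers counting error only, runs from 2.81 to 14.4 for the 7 counts and from 28.6 to 54.5 for the 40 counts. For the 19 counts it runs from 11.4 to 29.7, so the intervals of the nearest libraries of the groups overlap. The levels of Vcam1 were 7.01, 14.6 and 12.9 CPM in the healthy-labelled and 3.48, 2.53 and 1.13 CPM in the ARF-labelled libraries. The groups did not overlap, and the lowest healthy-labelled library was 2.01 times the highest ARF-labelled library. Vcam1 fell from 11.5 ± 4.0 to 2.38 ± 1.18 CPM (SD, n = 3 each), a log2 fold change of -2.42 (SE 0.44, edgeR adjusted p = 0.00217).

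Vim encodes vimentin, the intermediate filament of mesenchymal, endothelial and glomerular cells that dedifferentiated tubule cells take up. It stood at 106, 299 and 206 CPM in healthy-labelled replicates 1, 2 and 3 and at 58.1, 56.8 and 39.2 CPM in ARF-labelled replicates 1, 2 and 3. No other of the 6 genes was as spread among the healthy-labelled libraries, where the highest was 2.81 times the lowest. The lowest of them was 1.83 times the highest ARF-labelled library, so the groups stayed apart. Vim fell from 204 ± 96.4 to 51.4 ± 10.5 CPM (SD, n = 3 each), a log2 fold change of -2.15 (SE 0.34, edgeR adjusted p = 0.00104).

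Cp, which oxidises iron for its loading onto transferrin, did not pass the test. It stood at 44.7, 57.4 and 46.8 CPM in healthy-labelled replicates 1, 2 and 3 and at 56.6, 44.9 and 56.2 CPM in ARF-labelled replicates 1, 2 and 3. The groups overlapped over nearly their whole range. The means were 49.6 ± 6.83 CPM under the healthy label and 52.6 ± 6.66 CPM under the ARF label (SD, n = 3 each). CPM is scaled by the library total alone, unlike the fit, and here its direction is opposite. In the fit the log2 fold change of Cp was -0.085 (SE 0.14, edgeR adjusted p = 0.649), with a 95% interval from -0.41 to 0.24. Its 2 rows, which cover exons 4 and 18, gave log2 fold changes of -0.033 (SE 0.15) and -0.089 (SE 0.18) when each row was fitted by itself. The sign of so small a value turned to 0.089 with scaling by total count and to 0.016 without ARF-labelled replicate 2.

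**Figure D3:**
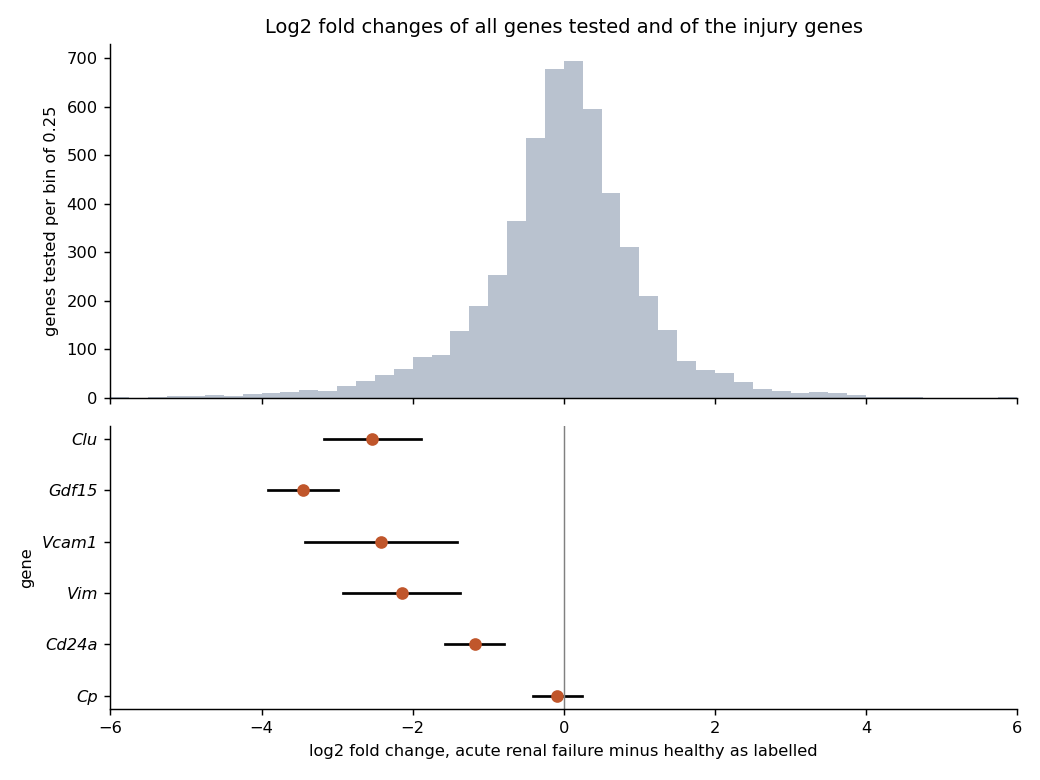
The upper panel counts genes tested by log2 fold change in bins of 0.25, and the lower panel gives the log2 fold change of each of the 6 genes as a point with its 95% interval as a line. The intervals of Clu, Gdf15, Vcam1, Vim and Cd24a lie below 0 and that of Cp, from -0.41 to 0.24, spans it.

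Levels of different genes can be set side by side only per length, here as CPM per kilobase of counted exon, and the counted parts lie at different places of the transcripts. In the healthy-labelled libraries the mean levels per length were 10506 for Clu, 6405 for Cd24a, 894 for Gdf15, 416 for Vim, 204 for Cp and 32.5 for Vcam1. The neighbours Clu and Cd24a overlapped between libraries, as did Vim and Cp, and the others did not. In the ARF-labelled libraries the order was Cd24a at 3192, Clu at 2052, Cp at 216, Vim at 105, Gdf15 at 92.5 and Vcam1 at 6.71. Only Vim and Gdf15 overlapped there. On these lengths the level of Gdf15 was above that of Cp in each healthy-labelled library and below it in each ARF-labelled library. The 2 Cp rows hold 166 and 77 basic exon bases, but 1147 and 332 in the full annotation. Where Cp stands against Vim, and against Gdf15 in the ARF-labelled libraries, therefore depends on the length used.

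The 6 genes did not vary alike among the healthy-labelled libraries. Replicate 1 was the highest of the 3 for Clu, Gdf15 and Cd24a and the lowest for Vim, Vcam1 and Cp. The summed levels of endothelial, fibroblast and leukocyte markers were also lowest there. The 6 endothelial genes read summed to 184, 361 and 303 CPM in healthy-labelled replicates 1, 2 and 3. In the ARF-labelled libraries they summed to 177, 163 and 152 CPM, and 3 of 6 tested were lower and 0 higher, among them Pecam1 (log2 fold change -1.29) and Eng (-1.03); without healthy-labelled replicate 2, 1 was higher. The 9 fibroblast, pericyte and smooth muscle genes read summed to 251.1, 1658 and 560 CPM in healthy-labelled replicates 1, 2 and 3 and to 550, 466 and 323 CPM in the ARF-labelled libraries, which overlap. The collagen genes Col1a1 and Col1a2 gave 848 and 603 of the 1658 CPM in healthy-labelled replicate 2. Of the 9 genes 1 was lower and 2 were higher. Without healthy-labelled replicate 1 the counts were 5 and 1. Without healthy-labelled replicate 2 they were 0 and 1, 0 and 0 with healthy-labelled replicate 3 or ARF-labelled replicate 1 left out, and 0 and 1 with ARF-labelled replicate 2 left out. The collagen gene Col1a1 stood at 44.3, 848 and 116.5 CPM in healthy-labelled replicates 1, 2 and 3 and missed the threshold with a log2 fold change of -2.28 (edgeR adjusted p = 0.0674); without healthy-labelled replicate 2 its log2 fold change was -0.25, and without healthy-labelled replicate 1 it was called at -2.82 (edgeR adjusted p = 0.0157).

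Leukocyte marker sums were also lowest in healthy-labelled replicate 1 among the libraries of that label. The 7 macrophage and dendritic cell genes read summed to 52.7, 107 and 85.9 CPM in healthy-labelled replicates 1, 2 and 3 and to 36.8, 39.3 and 30.5 CPM in the ARF-labelled libraries, and 5 of 7 tested were lower, or 3 without healthy-labelled replicate 3. The 2 neutrophil genes read, Mmp8 and Csf3r, summed to 46.6, 128 and 155 CPM and to 6.78, 3.08 and 6.95 CPM, and both were lower. None of the genes read in these 4 lists was at 0 counts over all libraries. Their part in the levels of Vim and Vcam1 was not tested. Without healthy-labelled replicate 1, where Vim and Vcam1 were lowest, their log2 fold changes were -2.47 and -2.70, and those of Clu and Cd24a, which were highest there, were -2.26 and -1.02. Without healthy-labelled replicate 2, where Vim and Vcam1 were highest, theirs were -1.80 and -2.25. Each of these values passed the test.

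**Figure D4:**
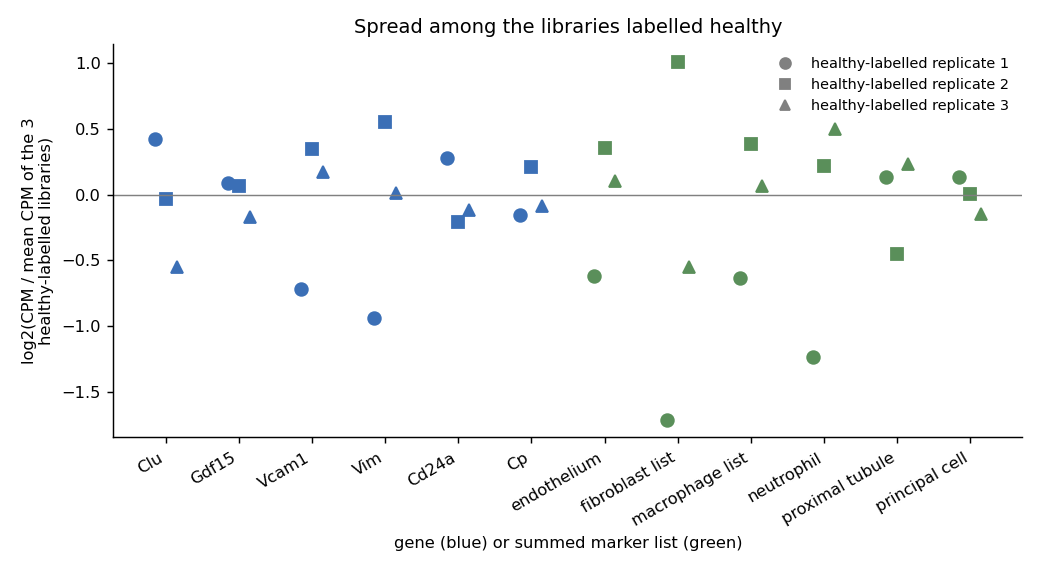
Log2 ratio of each healthy-labelled library to the mean of the 3, for the 6 genes in blue and for the summed CPM of marker lists in green, with the replicate number as the symbol. Replicate 1 lies lowest for Vim, Vcam1 and the endothelial, fibroblast, macrophage and neutrophil lists and highest for Clu and Cd24a.

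Most other genes of tubular injury and repair that could be tested were lower too. Of 46 on a list that left the 6 members out, 11 could be read and 10 tested, of which 7 were lower, 0 higher and 3 not called, with a median log2 fold change of -1.27 against 0.01 over all genes. Cdkn1a, the cell cycle inhibitor p21, fell from 615 ± 63.3 to 60.6 ± 9.16 CPM (log2 fold change -3.52). The actin-binding tropomyosin gene Tpm4 had a log2 fold change of -1.97 and the non-muscle myosin heavy chain gene Myh9 one of -1.81. The 7 include Prom1, named after its value was seen and read over 43 exon bases. Its edgeR adjusted p was 0.0467 and its groups overlapped in CPM. Havcr1 and Lcn2, the injury markers in widest use, could not be read by position. The count of higher genes was 2 instead of 0 without healthy-labelled replicate 2. Markers of the mature proximal tubule were also lower in 4 of 5 tested, with sums of 7355, 4883 and 7862 CPM in healthy-labelled replicates 1, 2 and 3 and 4011, 2859 and 3076 CPM in the ARF-labelled libraries. The part of such tissue differences in the injury genes was not tested.

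The genes grouped by the partners of each member were mixed. Of 9 chaperones and clusterin receptors tested, 5 were lower and 0 higher, with a median of -0.54. The smallest adjusted p-values were those of Serpinh1, the collagen chaperone (log2 fold change -1.23), Hyou1 (-0.60) and Pdia6 (-0.54), which fold proteins in the endoplasmic reticulum. The other 2, named after their values were seen, were Dnajb11 (-0.49) and the clusterin receptor gene Lrp8 (-1.82). Lrp8 had the largest fall of the list and held 5 to 38 counts per library. Without ARF-labelled replicate 1 the count of higher genes was 1 instead of 0. The Gdf15 receptor genes Gfral and Ret could not be read by position. Of 10 genes tested among the stress pathways that induce Gdf15 and their targets, 5 were lower and 1 higher, with a median of -0.51. Beside Cdkn1a, the smallest adjusted p-values were those of the asparagine synthetase gene Asns (-1.60) and the lipoprotein receptor gene Vldlr (-1.21). The other 2, named after their values were seen, were the cystine transporter gene Slc7a11 (-2.59) and Atf6 (-0.59), a sensor of unfolded proteins. The 1 that was higher was Phlda3, a p53 target (0.48, edgeR adjusted p = 0.0244), a call that did not survive the removal of healthy-labelled replicate 1 (adjusted p = 0.0670), healthy-labelled replicate 3 (0.101) or ARF-labelled replicate 2 (0.0775).

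Leukocyte adhesion genes, the setting of Vcam1, had the lowest median of the 7 lists, at -1.73, with 8 of 10 tested lower and 1 higher. Selp, the P-selectin of activated endothelium and platelets, stood at 6.13, 12.5 and 9.09 CPM in healthy-labelled replicates 1, 2 and 3 and at 0.733, 0.543 and 0.808 CPM in the ARF-labelled ones, a log2 fold change of -3.82. Its ARF-labelled values rest on 3 to 5 counts. Ezr, which links membrane proteins to actin in the brush border as well as under adhesion receptors, had -1.85, and Nfkb1, a subunit of the NF-kB factor that drives Vcam1, had -1.10. Alcam, an adhesion molecule of the immunoglobulin family, was the member that was higher (0.98). The integrin chain genes Itga4 and Itgb7, which bind Vcam1, were read but held too few counts to be tested. Itga9, another integrin chain that binds Vcam1, was lower, at 75.8 and 20.6 CPM (log2 fold change -2.04), and is named after its value was seen.

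The list of intermediate filaments other than keratins and of their linkers, the setting of Vim, had 3 of 6 tested lower and 3 higher and a median of -0.38. Of its 3 filament proteins tested 2 were lower and 1 higher, and of its 3 linkers 1 was lower and 2 higher. Nes, the intermediate filament nestin, had means of 404 ± 98.5 CPM under the healthy label and 63.3 ± 17.4 CPM under the ARF label (SD, n = 3 each), for a log2 fold change of -2.84. The lamin gene Lmna (-2.27) and the linker gene Plec (-1.43) were lower, and the lamin gene Lmnb2 (1.16) and the plakin genes Evpl (1.52) and Dst (0.67) were higher. The call of Dst did not survive the removal of healthy-labelled replicate 1 (edgeR adjusted p = 0.0807), healthy-labelled replicate 3 (0.0945) or ARF-labelled replicate 1 (0.0576, log2 fold change 0.43). Of the 6 genes tested on a list of CD24 ligands, kinases and progenitor markers, 4 were lower and 0 higher, with a median of -0.90. These were Selp again, the kinase genes Src (-1.07) and Fgr (-2.76), and the stem cell glycoprotein gene Prom1 (-0.74, edgeR adjusted p = 0.0467). Prom1 falls outside the naming rule and is named after its value was seen. Its groups overlapped, with 21.5, 15.7 and 29.7 CPM in healthy-labelled replicates 1, 2 and 3 and 11.5, 15.2 and 18.7 CPM in the ARF-labelled ones. Prom1 and Src were read over only 43 and 40 exon bases, and with at least 100 bases per row 2 of the list were lower.

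Iron and copper handling, the setting of Cp, showed few calls. Of 10 tested, 2 were lower, 1 was higher and 7 were not called, with a median of -0.28. Steap2, a metalloreductase, stood at 153 ± 8.58 and 65.7 ± 9.33 CPM (log2 fold change -1.39), and Slc39a14, a zinc and iron importer, at 76.7 ± 9.67 and 31.2 ± 5.96 CPM (-1.47). Cox17, which carries copper to cytochrome oxidase, was higher at 139 ± 19.3 and 239 ± 14.2 CPM (0.60). Without healthy-labelled replicate 2 the list had 4 lower genes.

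**Figure D5:**
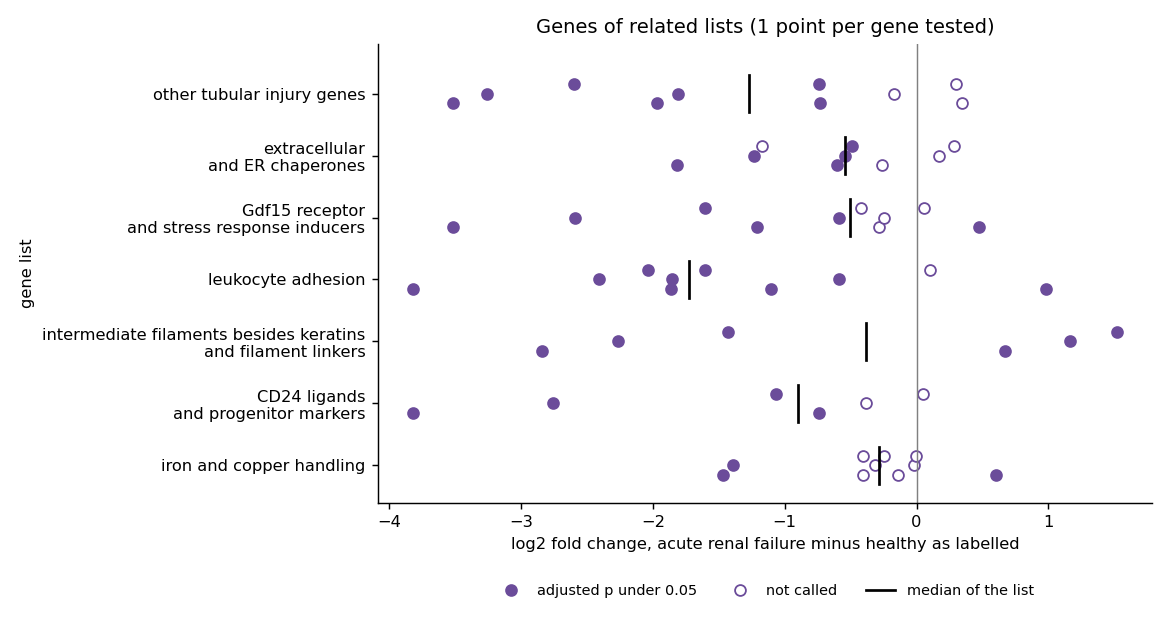
Log2 fold change of every gene tested in 7 lists of related genes, 1 point per gene, filled where the adjusted p was under 0.05, with a black bar at the list's median. Most filled points of the injury and leukocyte adhesion lists lie below 0, the filament list has 3 on each side, and 7 of 10 points of the iron and copper list are open.

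The genes whose profiles over the 6 libraries were most like each member were found by the root mean square difference of centred log2 CPM, among 3562 protein-coding candidates. For Gdf15 the nearest was Cdkn1a, at 0.21 log2 units, followed by Lrrc32 (0.29) and Akr1b8 (0.31). For Clu they were Hilpda (0.21), Rbm3 (0.24) and Gcnt2 (0.25). Vim was nearest to Hecw2 (0.21), Col5a2 (0.21) and Slco2a1 (0.22), and Vcam1 to Arhgap31 (0.22), Slco2a1 (0.24) and Dysf (0.24). Slco2a1, a prostaglandin transporter gene, thus stood near both Vim and Vcam1. Cd24a had 65 candidates within 0.2, the nearest being Kctd5 (0.083), Eif1a (0.086) and Plpp2 (0.12), and Cp had 459, the nearest being Ube2q2 (0.044), Sap130 (0.047) and Dicer1 (0.061). The candidates within 0.2 of Clu, Gdf15, Vcam1 and Vim were 0 in number.

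RefSeq promoters on GRCm38.p6, from 250 bases before to 50 after a start site, were at hand for 3 of the 6 genes, Vim, Cp and Gdf15, with 5 promoters in all, and 32851 promoters served as the comparison. The motifs were searched on both strands. TATAAA, the TATA box, was found in 2 of the 5, in Vim at positions -32 to -27 and in Cp at -25 to -20, where the same letters also match on the other strand, and in 13.6% of all promoters. The AP-1 motif TGANTCA was found in 1 of 5, the other Cp promoter, and in 7.81% of all. The NF-kB motif, the heat shock motif GAANNTTC, the GAS motif TTCNNNGAA, the CRE motif TGACGTCA, the ATF4 and CHOP motif TGATGNAA and the SP1 motif GGGCGG were found in 0 of 5, and in 0.411%, 7.86%, 8.30%, 1.79%, 3.97% and 35.7% of all promoters. The last 100 bases before the start site are shown for Vim (chr2:13574211-13574310) and Cp (chr3:19957149-19957248), a gene that fell and the gene that was not called. They run 5′ to 3′ on the plus strand, with the TATA match in capitals, which for Cp covers both overlapping matches.
Vim: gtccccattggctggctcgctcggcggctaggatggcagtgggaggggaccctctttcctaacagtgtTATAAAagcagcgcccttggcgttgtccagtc
Cp: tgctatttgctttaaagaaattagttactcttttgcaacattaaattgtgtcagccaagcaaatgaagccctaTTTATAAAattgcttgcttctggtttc

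Total counts ran from 2873370 to 6191479 per library, and genes read by position held 62.6% to 63.5% of them. The healthy-labelled totals were 5710010, 2873370 and 3630813 and the ARF-labelled totals 5455886 to 6191479, so 2 of the 3 healthy-labelled libraries were shallower than each ARF-labelled one. Kidney epithelium was present in all 6 libraries, with proximal tubule markers summing to 2859 to 7862 CPM.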

How the data were processed

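Kidney RNA was extracted with Trizol and made into Illumina TruSeq libraries, per the labels' protocols. The authors deposited raw fragment counts per gene row, made with featureCounts 2.0.1 over exons without regard to strand, keeping pairs with both ends aligned, per the file headers. Bowtie 0.12.2 and mm9 stand in the submitters' processing notes, while the counts lie on GRCm38 exons. For the aligner behind them, the sources used here give none.

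With bedtools 2.31.1, Python 3.11.15 and pandas 2.3.3, each row went to the GENCODE M21 basic gene that made up 0.9 or more of the exon sequence under it, with a minimum of 25 bases, and rows of a gene were summed (12401 of 53546 rows, 9519 genes, 63.0% of counts). Counting ignored strand, so antisense genes and near-identical copies may contribute. CPM is a count divided by its library's sum over all 53546 rows, times 1000000. It carries no TMM factor, whereas the log2 fold changes do. The TMM factors were 0.929 to 0.957 in the healthy-labelled and 1.04 to 1.07 in the ARF-labelled libraries. Group differences, ARF-labelled minus healthy-labelled, were tested two-sided with edgeR 4.0.16 in R 4.3.3 (quasi-likelihood, TMM, filterByExpr, group as the only term), with Benjamini-Hochberg adjusted p under 0.05. SE is the log2 fold change divided by the square root of F. The fit was tested on simulated data. DESeq2 1.42.0, other scalings, filters, row rules, a replicate block and leaving out each library served as alternatives.

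The members and lists were chosen with earlier results of these data known. Named genes are the members, the 3 called genes of each related list with the smallest adjusted p in each direction, up to 2 markers per list by mean CPM, and the 3 genes most like each member among those with at least 100 counted exon bases and a mean of at least 10 CPM (log2 CPM with a prior count of 2).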

Additional observations from a re-analysis of the deposited data

How the results depend on the processing

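Over 16 alternative settings Gdf15 ranged from a log2 fold change of -3.60 to -3.26, Clu from -2.78 to -2.26, Vim from -2.47 to -1.80 and Cd24a from -1.31 to -1.005, and Vcam1 from -2.77 to -2.05 over 15. Each stayed lower at an adjusted p of at most 0.0112, the highest being that of Vcam1 without healthy-labelled replicate 3. Vcam1 could not be read where a row needed all of its overlapped exon bases in 1 gene, which left 4 members lower. Cp was called in none of the 16 and changed sign with scaling by total count (0.089) and without ARF-labelled replicate 2 (0.016); leaving out 1 library gave -0.16 to 0.016. Fitting the deposited rows in place of genes, with 10919 features tested, gave 2467 lower and 2578 higher against 1305 and 1319. Among 49 other named genes, 7 results lost their call under an alternative, 3 gained one and 771 kept their side. These 49 came from the related lists, the genes most like each member except Cp, and some marker lists. The marker lists were endothelial, fibroblast, macrophage, neutrophil, principal cell and intercalated cell. Genes named after their values were seen, such as Thsd7a, are not in this tally.

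Deviations of same-numbered libraries from their group means correlated at r = -0.07, -0.22 and -0.29 for numbers 1, 2 and 3. Pairs of unlike number ran from -0.055 to 0.245. With 3 libraries per group, centred on their own mean, these values cannot tell whether same-numbered libraries share anything beyond the number. With the replicate number as a block 5 members were lower and 0 higher, and 1153 and 1135 of all genes. Of the 6 members Vcam1 has the fewest counts, 7 to 47 per library. Genes named beside them with few counts include Selp (3 to 36), Lrp8 (5 to 38), Lck (9 to 29), Pax5 (1 to 13), Itga4 (1 to 6) and Itgb7 (0 to 5). Others held few counts in ARF-labelled libraries only, among them Fgr (12 to 25), Mmp8 (5 to 22) and Slc7a11 (7 to 55).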

Other observations

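Marker lists of cell types that the account above does not draw on were few genes long and mostly mixed, so their summed levels follow the gene with the highest level. Of 2 podocyte genes read, Synpo fell (19.2 to 4.11 CPM, log2 fold change -2.37), while Thsd7a was higher (267 to 423 CPM, 0.49), a call lost with the replicate block and in 4 of the 6 fits that leave out 1 library. Of 3 parietal epithelium genes, 2 were lower, Akap12 (-6.32) and the keratin gene Krt7 (-0.69), and the list summed to 1413 to 1793 CPM in the healthy-labelled and 729 to 954 CPM in the ARF-labelled libraries. Of 2 urothelial genes tested, Upk3a was higher (1.86) and Krt5 was not called (-0.57). Of 2 loop of Henle genes, Kcnj1 was higher (3.75) and Egf was not called (-0.15). Of 2 B and T lymphocyte genes tested, Lck was not called (-0.021). Pax5 fell from 2.94 to 0.559 CPM (-2.43), a value that rests on 1 to 13 counts per library. The genes in this paragraph were named after their values were seen.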
